A study of Mus musculus with 6 samples.

Results

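The EGF family of growth factors and its ErbB receptors were followed in mouse vagal jugular-nodose ganglia through 10 genes, chosen by symbol out of 32719 in the count files. The 6 ligand genes were Tgfa, Hbegf, Areg, Ereg, Egf and Nrg1, and the 4 receptor genes were Egfr, Erbb2, Erbb3 and Erbb4. The study sequenced RNA of these ganglia, where vagal sensory neurons have their somata, in 3 control and 3 treated libraries. The protocol describes male C57BL/6J mice, labelled WT, with osmotic pumps under the skin that delivered PBS or PBS with S961, a peptide that blocks insulin receptors, over 2 weeks at a rate of 10 nmol per week. All groups shared anaesthesia and the implanted pump. Because S961 stands as the treatment label of every library, which ones received PBS was taken from the titles and the protocol. The labels do not give the age of the mice. The labels do not say whether the libraries come from separate animals or from pooled ganglia, and every p-value here measures only the spread between these libraries, which may be technical.

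ErbB receptors are tyrosine kinases that pair up when a ligand binds. TGF-alpha, amphiregulin, EGF, HB-EGF and epiregulin bind EGFR, the last 2 also ERBB4, whereas neuregulin-1 binds ERBB3 and ERBB4. ERBB2 has no known ligand and ERBB3 little kinase activity of its own, so they signal as a pair. In peripheral nerve, neuregulin-1 on axons is known for directing Schwann cells, which carry ERBB2 and ERBB3, to survive and to myelinate.

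The libraries held 12898607 to 33522486 gene counts. Treated replicate 3, the smallest, stood apart, with correlations to the other libraries of 0.920 to 0.944 across 12197 genes against 0.968 to 0.989 among the other 5 (genes are not independent replicates). This library also had the most RNA of fibroblast, macrophage and fat cell markers. The source and tissue labels name spinal cord, but a list of 7 spinal cord markers summed to between 1.38 and 6.12 CPM (CPM being a gene's counts relative to its library's total, adjusted with TMM factors, the trimmed mean of M-values), while P2rx2, an ATP-gated channel of nodose neurons, stood at 81.7 to 208 CPM. The oligodendrocyte gene Mog was listed at 0 in 5 of the 6 libraries.

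No member passed the test of treated against control. With edgeR's quasi-likelihood test 0 of the 9 members tested had an adjusted p under 0.05, where 0% of all 16019 genes tested passed, and DESeq2 and limma-voom called 0 members too. DESeq2 called 0.603% of all genes and limma-voom 0%, or 0.0499% with sample weights. Members also stood at 0 calls without the low-count filter (0.0941% of all genes), with the replicate number as a block (0.00624%), and without treated replicate 1 (0.0437%) or treated replicate 3 (0.0537%). Ereg, the tenth member, was too low to be tested. At an unadjusted p under 0.05 edgeR gave 1 member, Tgfa, against 6.67% of all genes. The treated libraries did not overlap the controls for 2 members, against 14.7% of all genes. They lay above for Tgfa (7.07% of all genes) and below for Nrg1 (7.63%). The sign was positive for 6 members and negative for 3, against 52.8% and 47.2% of all genes. The median log2 fold change of the 9 tested members was 0.05, and that of all genes tested was 0.02. In bulk ganglia fewer cells of a type and less RNA per cell cannot be told apart.

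**Figure D1:**
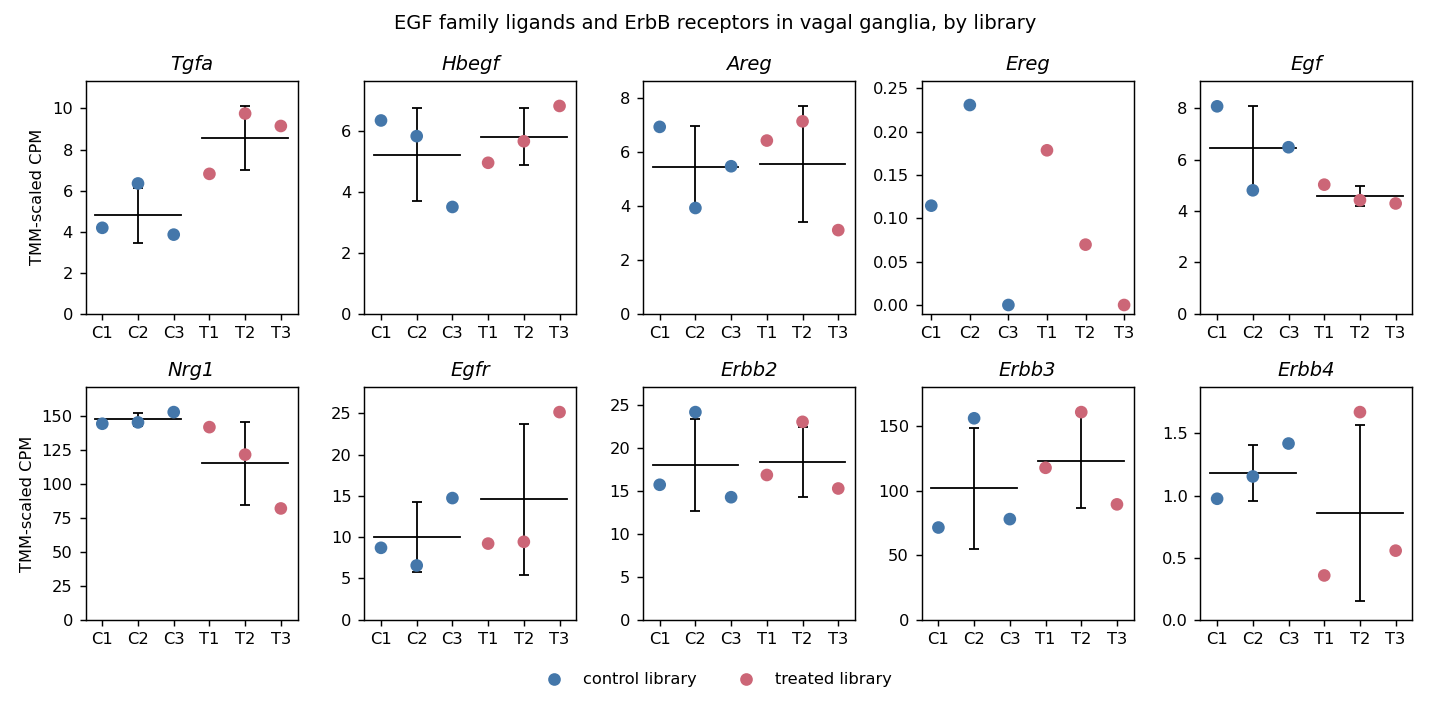
TMM-scaled CPM of each of the 10 genes (vertical axes, from 0 for all but Ereg) in the 3 control (C1 to C3, blue) and 3 treated (T1 to T3, red) libraries, with group mean and SD except for Ereg, whose libraries held 0 to 6 counts. Treated libraries sit above all controls for Tgfa and below them for Nrg1, and the groups overlap for the other 8 genes.

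Compared per kilobase of exon, Erbb3 and Nrg1 were the most abundant members. Erbb3 averaged 18.7 CPM per kb over the 6 libraries, with a range of 11.9 to 26.8, and Nrg1 averaged 12.7 with a range of 7.91 to 14.7. Their order was not stable, since Erbb3 exceeded Nrg1 in 4 of 6 libraries. Nrg1 lay above the next gene, Areg, in 6 of 6 libraries. Areg averaged 4.53 CPM per kb and Erbb2 3.50, and Areg was the higher in 4 libraries. Hbegf at 1.15, Egfr at 1.09 and Tgfa at 1.03 CPM per kb could not be ordered, because each exceeded the next in only 4 and 3 libraries. Egf at 0.490 and Erbb4 at 0.0827 CPM per kb followed, and Ereg came last at 0.0240. Within each library Nrg1 made up 56.7% to 70.4% of the summed level per kb of the 6 ligands, and Erbb3 74.1% to 83.2% of that of the 4 receptors.

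**Figure D2:**
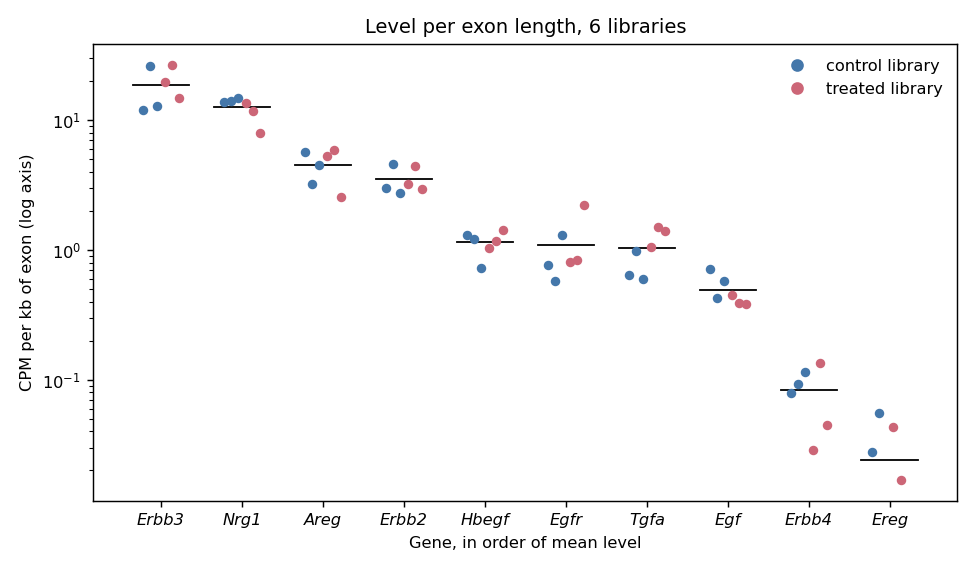
Level per kilobase of exon on a log axis for the 10 genes in order of their mean (line), with 1 point per library (control blue, treated red). Erbb3 and Nrg1 lead, and Ereg is lowest, where the 2 libraries at 0 counts cannot be drawn on a log axis.

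The sequences around the start of transcription are given for 3 members, none of which passed the test. They are Tgfa, whose treated libraries lay above the controls, Areg, whose groups overlapped, and Egfr, the receptor of both ligands. No relation of these sequences to the values was tested. RefSeq windows on GRCm38.p6 of 250 bases before and 50 bases after the start were used for 6 of the 10 members. This is the number of members used, not the number that had a window. Both strands were searched for an AP-1 motif (TGANTCA), a cyclic AMP response element (TGACGTCA), a GC box (GGGCGG) and a TATA motif (TATAAA), and the matches, which do not overlap each other, are in capitals. Among all 32851 windows, 7.81% hold the AP-1 motif, 1.79% the cyclic AMP response element, 35.7% a GC box and 13.6% the TATA motif.
Tgfa, chr6:86194972-86195271, plus strand: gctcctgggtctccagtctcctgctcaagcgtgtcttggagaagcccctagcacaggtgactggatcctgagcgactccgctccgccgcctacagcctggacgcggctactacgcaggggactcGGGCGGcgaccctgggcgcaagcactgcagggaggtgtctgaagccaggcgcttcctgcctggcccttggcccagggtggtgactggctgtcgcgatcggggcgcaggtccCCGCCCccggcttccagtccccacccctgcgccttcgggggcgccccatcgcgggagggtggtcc
Areg, chr5:91139349-91139648, plus strand: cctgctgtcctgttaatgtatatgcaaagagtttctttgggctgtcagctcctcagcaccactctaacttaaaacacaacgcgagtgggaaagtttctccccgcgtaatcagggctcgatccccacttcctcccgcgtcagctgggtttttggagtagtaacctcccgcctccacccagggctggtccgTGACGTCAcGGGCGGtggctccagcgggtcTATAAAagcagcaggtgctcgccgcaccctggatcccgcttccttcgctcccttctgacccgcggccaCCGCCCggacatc
Egfr, chr11:16751953-16752252, plus strand: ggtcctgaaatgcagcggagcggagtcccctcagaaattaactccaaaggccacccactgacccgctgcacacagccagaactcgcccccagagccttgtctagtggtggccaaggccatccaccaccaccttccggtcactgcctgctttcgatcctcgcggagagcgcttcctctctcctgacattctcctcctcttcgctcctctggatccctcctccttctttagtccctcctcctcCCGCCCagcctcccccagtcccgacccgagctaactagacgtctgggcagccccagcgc
The Areg window held, in order, a cyclic AMP response element that begins 61 bases before the start, a GC box that begins 52 bases before it and a TATA motif that begins 31 bases before it, with 1 more GC box on the minus strand at base 38. Tgfa held 2 GC boxes, beginning 126 bases before the start and, on the minus strand, 15 bases before it, and none of the other motifs. Egfr held 1 GC box on the minus strand, 9 bases before the start. The windows of Egf (2), Erbb2 and Erbb4 held none of these letters. A match is a description of the sequence, and binding was not measured.

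Tgfa encodes TGF-alpha, a membrane-anchored ligand of EGFR that is released by cleavage (ENSMUSG00000029999, chromosome 6, 86195223 to 86275719, plus strand, GRCm38). It had 4.18, 6.35 and 3.85 CPM in control replicates 1, 2 and 3 and 6.81, 9.75 and 9.15 CPM in treated replicates 1, 2 and 3. Every treated library was thus above every control, although treated replicate 1 exceeded control replicate 2 by little. The group means were 4.79 ± 1.35 and 8.57 ± 1.55 CPM (SD, n = 3), a log2 fold change of 0.83 ± 0.26 (SE) with an edgeR adjusted p of 0.675 (unadjusted 0.0142) and an exact permutation p of 0.1, the smallest that 3 against 3 can give. DESeq2 gave 0.81 at an adjusted p of 0.263, and over all alternatives the adjusted p ran from 0.255 to 0.995. With 1 library left out at a time the log2 fold change stayed between 0.69 and 1.08, and the groups did not overlap under scaling by library size or by median-of-ratios size factors either. An unstranded count could include an antisense gene that covers 118 bp, or 1.82%, of its exons, since the strand setting of the counting was not stated.

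The 6 libraries stood in the same order for Tgfa and for the summed RNA of injury genes of sensory neurons. Both separated the groups, so only the order within each group could have differed. The injury list was chosen with earlier results of these data known, and the match is a description only. The summed level of 7 injury genes, among them Atf3, was 139, 143 and 124 CPM in the controls and 284, 519 and 496 CPM in the treated libraries. The 8 Schwann cell markers summed to 1894, 2760 and 1956 CPM in the controls and 2224, 3129 and 2900 CPM in the treated libraries. Treated replicates 2 and 3, the highest in Tgfa, were also the highest in both lists, but the Schwann cell sums overlapped and treated replicate 1 was below control replicate 2. Markers of jugular neurons, 5 of 6 listed being in the files, summed to 216, 219 and 175 CPM in the controls and 421, 255 and 520 CPM in the treated libraries, again without overlap. Of all single genes tested, 7.07% had every treated library above every control. The part of these lists in the Tgfa difference was not tested. The 4 genes whose log2 CPM was most like that of Tgfa over the 6 libraries, out of 12197 genes, were Elovl1, a fatty acid elongase (Pearson r 0.999), the complement gene C4b (0.995), Kank4 (0.992) and the fatty acid synthase Fasn (0.991). C4b had 29.7, 58.6 and 28.2 CPM in the controls and 61.4, 95.8 and 102 CPM in the treated libraries. The points share library depth and composition, and such a choice among many genes over 6 libraries is a description only.

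Hbegf, which encodes the heparin-binding ligand HB-EGF (ENSMUSG00000024486, chromosome 18, 36504927 to 36515805, minus strand), had 6.36, 5.85 and 3.51 CPM in the controls and 4.97, 5.68 and 6.84 CPM in the treated libraries. The groups overlapped, and control replicate 3 was the lowest of all. Its log2 fold change was 0.14 ± 0.28 (SE, edgeR adjusted p = 0.916) and became -0.07 without control replicate 3.

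Areg, which encodes amphiregulin (ENSMUSG00000029378, chromosome 5, 91139599 to 91148432, plus strand), had 6.94, 3.92 and 5.47 CPM in the controls and 6.43, 7.14 and 3.10 CPM in the treated libraries. Its highest and its lowest library were both treated ones, so the groups overlapped fully. The log2 fold change was 0.05 ± 0.36 (SE, edgeR adjusted p = 0.982). Its sign turned when control replicate 2 (-0.15), treated replicate 1 (-0.07) or treated replicate 2 (-0.18) was left out, and without treated replicate 3 it was 0.33.

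Ereg, the gene of epiregulin, lies 45952 bp upstream of Areg (ENSMUSG00000029377, chromosome 5, 91074622 to 91093646, plus strand). Controls held 2, 6 and 0 counts of it, and treated libraries held 6, 2 and 0. The ratio of summed counts, 8 in each group, was 0.778 relative to library size, with a 95% exact binomial interval of 0.254 to 2.38 that covers counting error only. A count of 0 allows up to 0.203 CPM in control replicate 3 and 0.239 CPM in treated replicate 3 (3 counts per library). At this depth a difference of Ereg within the binomial interval was not detectable. Its neighbour Areg had between 39 and 216 counts in the same libraries.

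Egf encodes the family's founding ligand as a long membrane precursor (ENSMUSG00000028017, chromosome 3, 129677565 to 129755316, minus strand). It stood at 8.08, 4.81 and 6.49 CPM in the controls and at 5.03, 4.42 and 4.30 CPM in the treated libraries. The treated libraries were close together and below 2 of the 3 controls, but control replicate 2 lay among them. The log2 fold change was -0.49 ± 0.25 (SE, edgeR adjusted p = 0.742), with an exact permutation p of 0.2, and it lay between -0.67 (without control replicate 2) and -0.30 (without control replicate 1). Antisense genes overlap 607 and 500 bp of its exons.

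Nrg1 encodes neuregulin-1 (ENSMUSG00000062991, chromosome 8, 31814551 to 32884029, minus strand) in several isoforms that gene counts do not separate. It had 144, 145 and 153 CPM in the controls and 142, 121 and 81.9 CPM in the treated libraries. The controls lay within 1.06-fold of each other, whereas the treated libraries spread 1.73-fold, the highest just under the lowest control. The means were 147 ± 4.68 and 115 ± 30.4 CPM (SD, n = 3), with a log2 fold change of -0.36 ± 0.18 (SE, edgeR adjusted p = 0.742) and an exact permutation p of 0.1. Leaving out treated replicate 3 gave -0.16, and leaving out treated replicate 1 gave -0.54. The separation of the groups depended on the scaling: with library size alone the highest treated library, at 142.0 CPM, exceeded the lowest control, at 141.2 CPM. A lincRNA on the other strand overlaps 482 bp of its exons.

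Nrg1 was set against the synaptic gene Snap25, which like Nrg1 was lower in every treated library than in every control. Snap25 had 1051, 962 and 1009 CPM in the controls and 923, 822 and 559 CPM in the treated libraries. The ratio of Nrg1 to Snap25, each per kb, was 0.0961 ± 0.00528 in controls and 0.0979 ± 0.00245 in the treated ones (SD, n = 3), a 1.02-fold difference (exact permutation p = 0.8). Over the 6 libraries this ratio varied 1.119-fold, where Nrg1 itself varied 1.87-fold. Among the controls the order differed, since Snap25 was highest and Nrg1 lowest in replicate 1. Snap25 does not stand for the other neuronal markers. Its log2 fold change was -0.39, whereas Rbfox3 was at 0.28, Tubb3 at 0.08, Stmn2 at 0.05, Uchl1 at -0.09 and Elavl4 at -0.10, each of these 5 with overlapping groups. The ratio of Tgfa to Snap25 was 0.00502 ± 0.00163 in controls and 0.0124 ± 0.00470 in treated libraries, without overlap (exact permutation p = 0.1), with the lower Snap25 of the treated libraries entering this ratio. These are 2 of 6 ratios that were chosen after the values were seen, and adjusted over the 6 by the Benjamini-Hochberg method the permutation p-values were 0.8 and 0.3. The 6 neuronal markers together summed to 4398 to 4669 CPM in controls and 3646 to 4759 CPM in treated libraries. Nodose markers, P2rx2 among them, summed to 934 to 992 CPM in controls and 438 to 770 CPM in treated libraries, lowest in treated replicate 3 as Nrg1 was. Treated replicates 1 and 2 went the other way. The nodose sum was 665 CPM in replicate 1 and 770 CPM in replicate 2, where Nrg1 had 142 and 121 CPM. Jugular markers went the other way, at 175 to 219 CPM in controls and 255 to 520 CPM in treated libraries. The sums of the nodose and jugular lists thus differed between the groups in opposite directions. The part of any of these lists in the Nrg1 difference was not tested.

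**Figure D3:**
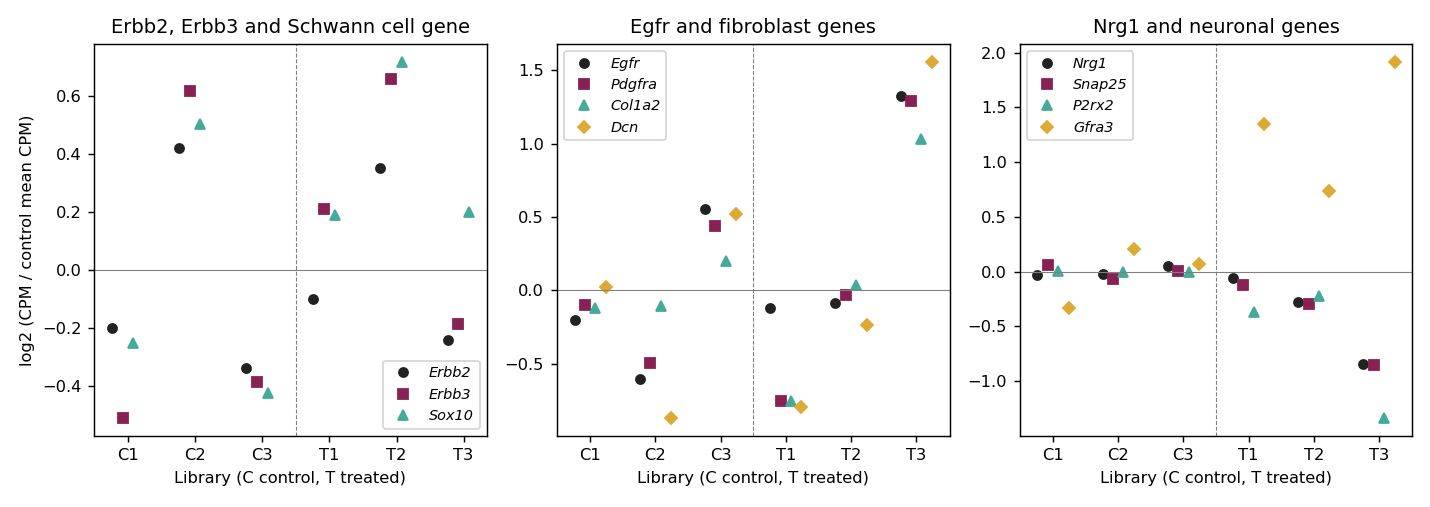
CPM relative to the control mean (log2) in each control (C) and treated (T) library for Erbb2 and Erbb3 with the Schwann cell gene Sox10, for Egfr with the fibroblast genes Pdgfra, Col1a2 and Dcn, and for Nrg1 with Snap25, the nodose gene P2rx2 and the jugular gene Gfra3. Erbb3 and Sox10 are both highest in C2 and T2, Egfr and Pdgfra in C3 and T3, and Nrg1 and Snap25 are lowest in T3.

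Among the receptors, Egfr (ENSMUSG00000020122, chromosome 11, 16752203 to 16918158, plus strand) varied most between libraries apart from the sparse Erbb4. It had 8.71, 6.58 and 14.7 CPM in the controls and 9.22, 9.44 and 25.1 CPM in the treated libraries. Replicate 3 was thus the highest library of each group, and the remaining libraries of both groups lay between 6.58 and 9.44 CPM. The log2 fold change of 0.54 ± 0.49 (SE, edgeR adjusted p = 0.803) turned to -0.09 without treated replicate 3 and was 0.92 without control replicate 3.

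The libraries highest in Egfr were also the highest in fibroblast RNA. The platelet-derived growth factor receptor Pdgfra, a fibroblast marker, had 25.1, 19.1 and 36.5 CPM in the controls and 15.98, 26.3 and 65.8 CPM in the treated libraries. The 6 fibroblast markers summed to 887, 658 and 1136 CPM in the controls and 476, 739 and 2138 CPM in the treated libraries, highest in the same 2 libraries as Egfr but lowest in treated replicate 1, where Egfr was not the lowest. Macrophage markers summed to 34.7 to 77.0 CPM in controls and to 41.3, 81.3 and 278 CPM in treated replicates 1, 2 and 3, with overlap. The part of either list in the Egfr values was not tested. Per kb, the ratio of Egfr to Pdgfra was 0.323 ± 0.0296 in controls and 0.389 ± 0.106 in the treated ones (SD, n = 3), with an exact permutation p of 0.5 (0.6 adjusted over the 6 ratios). In treated replicate 1 it was 0.511, above the 0.305 to 0.357 of the other 5. Among the genes most like Egfr over the 6 libraries were Wdr43 (Pearson r 0.995), the palmitoyltransferase Zdhhc15 (0.992) and Ptma (0.990).

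Erbb3 (ENSMUSG00000018166, chromosome 10, 128567523 to 128589652, minus strand) and its signalling partner Erbb2 (ENSMUSG00000062312, chromosome 11, 98412470 to 98437716, plus strand) shared their highest libraries. Erbb3 had 71.5, 156 and 78.1 CPM in the controls and 118, 161 and 89.5 CPM in the treated libraries. Erbb2 had 15.7, 24.2 and 14.3 CPM in the controls and 16.8, 23.0 and 15.3 CPM in the treated libraries. Replicate 2 of each group was the highest for both genes and the groups overlapped. The log2 fold change of Erbb3 was 0.27 ± 0.36 (SE, edgeR adjusted p = 0.869), and leaving out control replicate 2 or treated replicate 2 moved it to 0.71 or 0.01. That of Erbb2 was 0.03 ± 0.24 (SE, edgeR adjusted p = 0.984). It was negative without control replicate 1 (-0.07), control replicate 3 (-0.12) or treated replicate 2 (-0.18), and 0.29 without control replicate 2.

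The Schwann cell lineage factor Sox10 was highest in the same libraries, with 69.6, 118 and 61.8 CPM in the controls and 94.7, 137 and 95.2 CPM in the treated libraries. The sum of the 8 Schwann cell markers was also highest in replicate 2 of each group. It was higher in treated replicate 3 (2900 CPM) than in treated replicate 1 (2224 CPM), where both receptors went the other way. The 6 satellite glia markers summed to 524, 585 and 549 CPM in the controls and 506, 604 and 748 CPM in the treated libraries. They were highest in control replicate 2 and treated replicate 3. The part of Schwann cell or satellite glia RNA in the values of both receptors, or of Sox10, was not tested. Per kb, Erbb3 stood at 0.612 ± 0.0805 of Sox10 in controls and at 0.569 ± 0.0814 in the treated ones (SD, n = 3, exact permutation p = 0.5). Erbb2 stood at 0.129 ± 0.00775 of Sox10 in controls and at 0.0990 ± 0.00512 in treated libraries, without overlap (exact permutation p = 0.1, and 0.3 adjusted over the 6 ratios). Erbb3 exceeded Erbb2 per kb 3.94-fold to 5.60-fold in controls and 5.07-fold to 6.06-fold in treated libraries, with overlap (exact permutation p = 0.2, and 0.4 adjusted).

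Erbb4, a receptor of neuregulins that is known from neurons and heart, was barely present (ENSMUSG00000062209, chromosome 1, 68032186 to 69108059, minus strand). Controls held 17, 30 and 21 counts of it and treated libraries 12, 48 and 7, or 0.974, 1.15 and 1.42 CPM against 0.357, 1.67 and 0.557 CPM. The treated group held both the highest and the lowest library. The log2 fold change was -0.43 ± 0.64 (SE, edgeR adjusted p = 0.882). Leaving out treated replicate 2 gave -1.41 and leaving out treated replicate 1 gave -0.04.

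**Figure D4:**
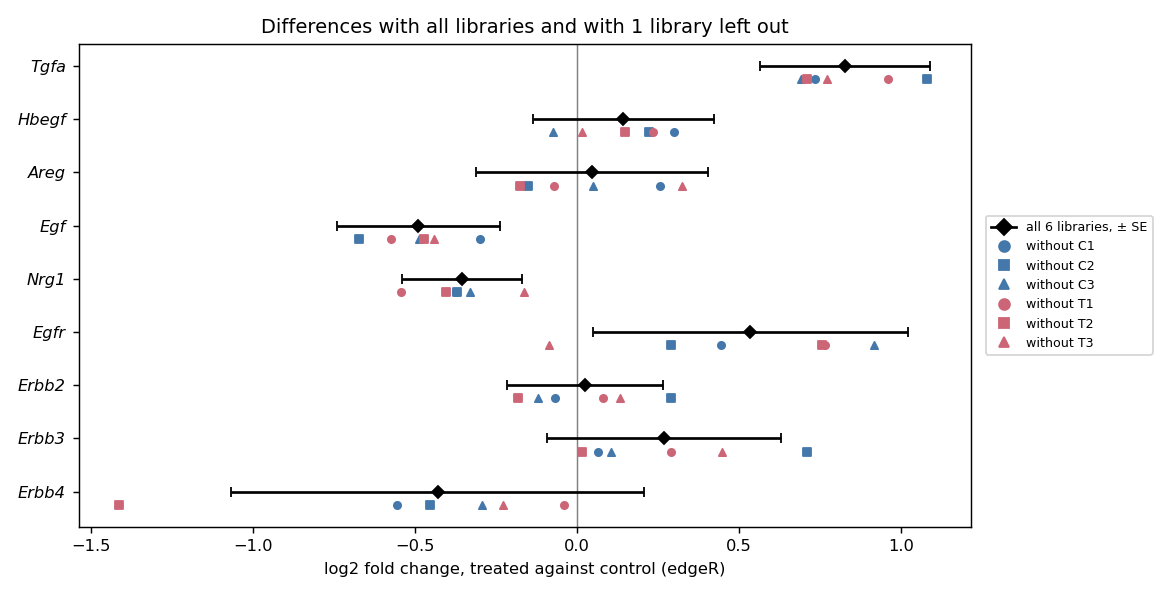
Log2 fold change of treated against control from edgeR for the 9 tested genes, with all 6 libraries (diamond, bar of 1 SE) and with each control (C) or treated (T) library left out (small symbols). Tgfa stays between 0.69 and 1.08, Egf and Nrg1 stay below 0, and Hbegf, Areg, Egfr and Erbb2 cross 0.

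The rest of the pathway was described through 47 genes in 5 lists, of which 46 were tested and 0 were called by edgeR (8 higher and 1 lower at an unadjusted p under 0.05, where 4% of all genes were higher and 2.67% lower). DESeq2 and limma-voom also called 0 of them. Of the other ligands, Nrg3 at 42.3 ± 2.80 and 42.7 ± 7.49 CPM and Nrg2 at 14.6 ± 0.785 and 14.1 ± 2.24 CPM in control and treated libraries (SD, n = 3) differed by less than their spread. Betacellulin (Btc), at 3.00 ± 0.376 and 3.38 ± 0.580 CPM, also overlapped. Per kb of exon Nrg3 averaged 6.24 CPM and Nrg2 4.57 CPM, below Nrg1. The sheddases that free these ligands, and the iRhom proteins that assist one of them, gave a median log2 fold change of 0.06, with 4 positive and 3 negative genes, and the groups overlapped for all 7. Adam10 was at 0.19 ± 0.13 and the iRhom gene Rhbdf1 at 0.44 ± 0.25 (SE), and without treated replicate 3 these were 0.08 and 0.12. Adam17, the main sheddase of TGF-alpha and amphiregulin, averaged 21.2 ± 0.624 CPM in the controls and 22.2 ± 2.35 CPM in the treated libraries (SD, n = 3). Nrg2, Nrg3 and Adam17 were named after their values were seen.

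In the list of 11 genes of ErbB inhibition and turnover 8 had positive and 3 negative values, with a median of 0.23. The treated libraries exceeded every control for 3 of them. This list is not limited to inhibitors, so its signs do not count inhibitors alone. Over all genes tested 52.8% were positive, 7.07% had treated libraries above every control, and the median was 0.02. Errfi1, which encodes the EGFR inhibitor MIG6, had 16.9, 19.4 and 15.6 CPM in the controls and 25.2, 22.8 and 24.4 CPM in the treated libraries. Its log2 fold change was 0.48 ± 0.12 (SE, edgeR adjusted p = 0.621) and lay between 0.41 and 0.56 with 1 library left out. The phosphatase Ptpn1, which acts on EGFR and on the insulin receptor, was at 0.52 ± 0.13 (SE, edgeR adjusted p = 0.621). The ubiquitin ligase Cblb, with 41.1 to 42.3 CPM in the controls and 48.0 to 67.0 CPM in the treated libraries, was the remaining gene of this list without overlap above the controls, and was named after its value was seen. Socs4, likewise named afterwards, had all treated libraries below the controls, at a log2 fold change of -0.11 ± 0.09 (SE).

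The 14 adaptor and proximal signalling genes had 5 positive and 9 negative values and a median of -0.04. The PI3-kinase subunit Pik3r1 was at 0.43 ± 0.11 and the transcription factor Stat3 at 0.27 ± 0.09 (SE), each with all treated libraries above the controls, at edgeR adjusted p-values of 0.621 and 0.696. The adaptor Shc1, named after its value was seen, had all treated libraries below the controls, at -0.20 ± 0.08 (SE, edgeR adjusted p = 0.737). Of 10 early targets of ERK, the kinase at the end of this pathway, 9 had positive values, 5 had all treated libraries above all controls, and the median was 0.42, which was 0.16 without treated replicate 3. The shares over all genes tested were 52.8% positive and 7.07% without overlap above the controls. Phlda1 had 9.92, 14.2 and 13.3 CPM in the controls and 17.5, 22.3 and 30.6 CPM in the treated libraries, a log2 fold change of 0.90 ± 0.23 (SE, edgeR adjusted p = 0.621). The AP-1 subunit Fosl1 was counted 5, 2 and 0 times in controls and 23, 16 and 18 times in treated libraries (adjusted p = 0.692 in edgeR). Several of these genes respond to many other stimuli, and the summed injury list given above separated the groups as well. The part of ErbB signalling or of injury in these values was not tested.

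**Figure D5:**
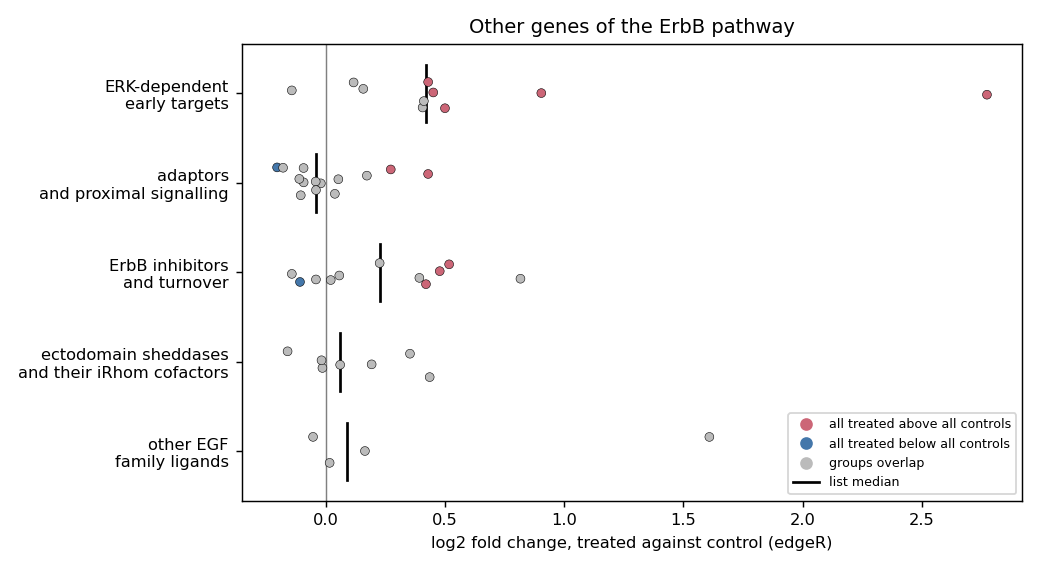
Log2 fold change of treated against control from edgeR for the 46 tested genes of 5 lists around the ErbB receptors, 1 point per gene, with the list median as a vertical line. The medians lie between -0.04 for adaptors and 0.42 for early targets of ERK, and coloured points mark genes whose groups do not overlap.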

How the data were processed

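The deposited values are raw exonic read counts per gene, 1 file per library. Per the submitters' processing notes, bcl2fastq 2.20, STAR 2.7.7a, DESeq2, edgeR and build mm10 were used, and per the labels a strand-specific kit for small RNA inputs. Which counting program and strand setting were used is not given in the sources used here. Members were taken by the symbol in the files, and coordinates and exon lengths (union of all exons) from GENCODE M21 (GRCm38), which matched 32663 of 32719 genes.

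Counts were fitted with edgeR 4.0.16 (R 4.3.3): filterByExpr with a minimum count of 10, TMM scaling, a robust quasi-likelihood F test on all 6 libraries, and Benjamini-Hochberg adjustment over 16019 genes at 0.05. A positive log2 fold change means higher in treated. The SE was obtained as the absolute log2 fold change over the root of the F statistic. The 6 ratios between genes were chosen after the values were seen. Single values were compared by two-sided exact permutation tests. In simulated data with 200 of 15725 genes changed, 149 genes were called, 9.4% of them falsely, with 55% of the 2-fold changes recovered and 80% of the 4-fold ones. The changed genes were drawn only from those above a minimum expected count. No simulated library was made to stand apart as treated replicate 3 did, so these rates may not hold for the real libraries.

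Alternatives were other scalings and filters, a replicate block, DESeq2 1.42.0, limma-voom (limma 3.58.1) and each library left out. Named genes are all members, the 2 pathway genes per list with the smallest p, with the other genes named after their values were seen so marked, and the 4 genes most correlated with Tgfa and with Egfr among those with a mean log2 CPM of at least 2 (prior count 2). The members and lists were chosen with earlier results of these data known. Some genes that these rules select are not reported here.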

Additional observations from a re-analysis of the deposited data

How the results depend on the processing

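Over 134 refits of the 9 tested members, 126 kept the direction and the side of the threshold, and 8 changed sign, each with 1 library left out. Hbegf ranged from -0.074 without control replicate 3 to 0.30. Areg was at -0.070 without treated replicate 1, -0.15 without control replicate 2 and -0.18 without treated replicate 2, with 0.33 as its highest value. Egfr ranged from -0.086 without treated replicate 3 to 0.92. Erbb2 was at -0.068 without control replicate 1, -0.12 without control replicate 3 and -0.18 without treated replicate 2, and reached 0.29. The number of members called, and of the 46 pathway genes called, was 0 in every setting run, an adjusted p under 0.1 included. The number of all genes called by edgeR was 0 and became 26 without the low-count filter, 96 with DESeq2 and 8 with limma-voom and sample weights, and it ran from 0 to 9 with 1 library left out (7 without treated replicate 1, 9 without treated replicate 3). With the replicate number as a block it was 1. Under that block Egfr was at 0.46 ± 0.19, Erbb3 at 0.32 ± 0.14 and Erbb2 at 0.04 ± 0.13 (log2 fold change ± SE). Their edgeR adjusted p-values were 0.520, 0.535 and 0.933. Without the block the SEs of these receptors were 0.49, 0.36 and 0.24. The SE of Hbegf rose under the block, from 0.28 to 0.31. The replicate numbers do not pair the libraries by label, and the deviations of same-numbered libraries from their group means correlated at 0.01, 0.56 and 0.49 across genes, so the block is not read as a pairing. Not every library correlated best with its own number. A prior count of 0.5 in place of 2 moved no member's difference in mean log2 CPM by more than the spread between replicates. Ereg and Erbb4 are limited by depth.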

Other observations

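Neuregulin-4 (Nrg4), an ERBB4 ligand that brown fat is known to secrete, had 1.72, 0.923 and 0.676 CPM in the controls and 0.714, 2.30 and 7.40 CPM in the treated libraries. Its range was 10.9-fold over the 6 libraries, and the groups overlapped. Its log2 fold change was 1.61 ± 0.83 (SE, edgeR adjusted p = 0.742) and 0.43 without treated replicate 3. Ucp1, which uncouples respiration in brown fat, had 2.29, 0.0769 and 2.703 CPM in the controls and 0.357, 8.81 and 78.4 CPM in the treated libraries, so treated replicates 3 and 2 were the highest in both genes. The 7 fat cell markers summed to 11.2 to 37.7 CPM in controls and to 8.04, 55.2 and 474 CPM in treated replicates 1, 2 and 3. Their part in the Nrg4 values was not tested.

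Epigen (Epgn), another EGFR ligand, was too low to be tested. Controls summed to 1 count and treated libraries to 8, which relative to library size is a 6.22-fold ratio with a 95% exact binomial interval of 0.834 to 276 that covers counting error only. Lrig3, a transmembrane protein listed here with the inhibition and turnover genes, had 1.83, 4.04 and 2.703 CPM in the controls and 3.48, 5.36 and 6.44 CPM in the treated libraries. Its log2 fold change was 0.82 ± 0.38 (SE, edgeR adjusted p = 0.737), and control replicate 2 lay above treated replicate 1. Lrig3 was named after its value was seen.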
